A study of Mus musculus with 23 samples.

Results

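The genes described here encode 9 subunits of Polycomb repressive complex 1 (PRC1): the chromobox genes Cbx2, Cbx7 and Cbx8, the PCGF genes Bmi1 and Pcgf2, the RING genes Rnf2 and Ring1, and the Polyhomeotic genes Phc1 and Phc2. They were chosen by name, and all 9 of the 9 were found among the 32285 gene rows of each of the 11 gene-expression matrices. Those matrices hold mouse bone marrow KSL cells (c-Kit+ Sca1+ Lineage-, the population that contains hematopoietic stem cells and multipotent progenitors), profiled with droplet 3′ single-cell RNA sequencing. The study has 23 samples. Of these, 6 are antibody-count samples that share the baseline matrices, and 6 are H3K27me3 CUT&Tag samples that were not analysed here.

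The baseline experiment used untransplanted mice 2 months old, with 2 libraries for each of 3 genotypes: Control, Ezh2 KO (Ezh2fl/fl) and Jarid2 KO (Jarid2fl/fl). In each genotype replicate 1 was male and replicate 2 female. Cells also carried 6 antibody tags, against CD150, CD117, CD48, CD201, CD135 and, through streptavidin-PE, Sca1. In the transplant experiment 500000 CD45.2 donor whole bone marrow cells were mixed with an equal number of CD45.1 competitor cells and given to lethally irradiated recipients, and CD45.2 KSL cells were sorted 18 weeks later. It has 1 Control, 2 Ezh2 KO and 2 Jarid2 KO libraries. The labels give no donor age or sex for it. All groups, Control included, carried Mx1-Cre, an interferon-inducible Cre that acts in many tissues besides blood. The labels name neither its inducer nor the floxed exons, and they name no floxed allele for Control. With 1 to 2 libraries a group and no statement of which animals were pooled, p-values measure only the spread between these libraries.

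PRC1 places monoubiquitin on histone H2A. Its catalytic core pairs a RING protein, RNF2 or RING1, with 1 PCGF protein, and the canonical form adds a CBX protein and a Polyhomeotic protein. The CBX chromodomain reads H3K27me3, the mark laid down by Polycomb repressive complex 2 (PRC2), of which EZH2 is the main catalytic subunit in dividing cells and JARID2 an accessory subunit. In blood, BMI1 is known for sustaining stem cell self-renewal and for repressing the Cdkn2a locus. CBX7 is known as the chromobox protein of self-renewing stem cells, and CBX2 and CBX8 as proteins of committed progenitors.

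The 250 bases upstream of the annotated start are shown for 4 members on which the results turn: Bmi1 and Cbx8 across genotypes, Cbx7 and Pcgf2 across surface-defined stem and progenitor cells. Cbx2 is named only. They are RefSeq sequence of GRCm38.p6, printed 5′ to 3′ on the strand of the gene, and capitals mark matches on either strand to CACGTG (an E-box), CCAAT or GGGCGG (a GC box), which may overlap.
Bmi1: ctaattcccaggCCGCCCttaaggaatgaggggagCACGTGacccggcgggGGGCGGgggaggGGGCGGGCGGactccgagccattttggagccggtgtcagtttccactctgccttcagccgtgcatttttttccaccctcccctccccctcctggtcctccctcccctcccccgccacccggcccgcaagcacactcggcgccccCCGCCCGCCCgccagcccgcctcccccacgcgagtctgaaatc
Cbx8: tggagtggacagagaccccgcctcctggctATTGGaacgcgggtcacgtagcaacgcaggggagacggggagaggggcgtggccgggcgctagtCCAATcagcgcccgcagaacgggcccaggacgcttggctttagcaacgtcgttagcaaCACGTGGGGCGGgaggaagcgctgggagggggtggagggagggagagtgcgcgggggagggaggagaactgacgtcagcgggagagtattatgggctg
Cbx7: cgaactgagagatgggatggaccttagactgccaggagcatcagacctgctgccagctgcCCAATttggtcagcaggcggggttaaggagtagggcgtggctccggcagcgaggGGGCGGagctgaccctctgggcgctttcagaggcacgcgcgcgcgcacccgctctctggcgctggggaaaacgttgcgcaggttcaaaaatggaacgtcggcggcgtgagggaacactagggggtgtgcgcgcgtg
Pcgf2: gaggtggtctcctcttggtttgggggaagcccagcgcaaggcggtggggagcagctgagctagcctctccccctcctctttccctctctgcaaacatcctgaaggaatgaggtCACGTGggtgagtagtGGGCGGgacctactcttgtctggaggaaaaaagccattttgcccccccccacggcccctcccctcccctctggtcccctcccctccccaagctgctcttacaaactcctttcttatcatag
They lie at chr2:18676768-18677017 on the plus strand for Bmi1, and on the minus strand at chr11:119040914-119041163 for Cbx8, chr15:79932647-79932896 for Cbx7 and chr11:97699649-97699898 for Pcgf2. The Cbx7 and Pcgf2 windows belong to starts inside the annotated gene spans (chr15:79915804-79971143 and chr11:97688821-97702434).

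The Bmi1 window is 70.4% G and C and holds 21 CpG dinucleotides, and the Cbx8 window is 66.4% with 22. The medians over all 32851 promoter windows were 52.4% and 6. Bmi1 and Cbx8 each hold 1 CACGTG, as does Pcgf2, and Bmi1 holds 6 GGGCGG. Cbx8 alone of these 4 holds 2 CCAAT, and Cbx7 holds 1. The 8 members with a sequence in the table have 10 windows between them. Of the 10 windows 4 hold CACGTG (in Bmi1, Cbx8, Pcgf2 and Phc2), against 6.02% of all promoter windows. CCAAT was found in 4 of the 10, against 33.8% of all windows, and GGGCGG in 8 of the 10, against 32.7%. The E2F-type motifs TTTGGCGC and TTTCGCGC were found in 0 of the 10, against 0.417% and 0.256% of all windows. A match is a string of letters, not a bound site.

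After removal of low-quality barcodes and predicted doublets, 73310 cells remained, 4354 to 9208 a library, with 67629053 to 126527222 UMIs (unique transcript counts) a library. Barcodes over the mitochondrial limit made up 2.82 to 5.82% of baseline barcodes and 25.7 to 43.4% of transplant barcodes. The libraries shared few cell barcodes, at most 0.392% for any pair. Kit stood at 241 to 295 CPM (counts-per-million, the counts scaled to an equal total of UMIs in each library) at baseline and 124 to 158 after transplantation, and Ly6a, which encodes Sca1, at 49.3 to 73.8 and 19.2 to 33.6. The T-cell gene Cd3e stayed at or below 0.298 CPM. Female cells made up 59.4% of the transplant Control library, 0.0163 and 0.0511% of the Ezh2 KO libraries, and 48.3 and 49.9% of the Jarid2 KO libraries.

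The baseline Control libraries had 209 and 193 CPM of Ezh2 and the Ezh2 KO libraries 163 and 148 CPM, a log2 difference of -0.33 (SE 0.06, edgeR quasi-likelihood test, Benjamini-Hochberg adjusted p = 0.0599). After transplantation Control had 185 CPM of Ezh2, and the Ezh2 KO libraries had 38.8 and 47.0 CPM (log2 difference -2.19, SE 0.13, adjusted p = 8.32e-04). Jarid2 transcripts stood at 215 and 205 CPM in the baseline libraries labelled Jarid2 KO and at 159 and 149.6 CPM in Control, a log2 difference of 0.46 (adjusted p = 0.107). The 3′ tags may lie outside the deleted exons, so neither gene's counts check the deletion, and no drop of Jarid2 marks the libraries labelled Jarid2 KO. Each direction given below for them rests on their labels.

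All 9 members passed the low-count filter in both experiments (the plot of member levels by library shows every value). Bmi1, a PCGF subunit of the canonical complex, spanned the widest range over the 11 libraries, 2.98-fold from 16.8 to 50.1 CPM. Ring1, the RING paralog, spanned the narrowest, 1.34-fold from 16.8 to 22.5 CPM. Rnf2, the main RING ubiquitin ligase, stood at 55.6 to 62.5 CPM in the baseline libraries and 24 to 30.9 CPM in the transplant libraries. Phc2 showed the same separation, at 43.0 to 47.2 and 25 to 32.7 CPM. The experiments differ in mice, age, time and counting software (Cell Ranger 7.2.0 and 6.1.2, per the file headers), which cannot be told apart. Levels are therefore compared within an experiment only, and for a summed library fewer cells of a type and less RNA per cell cannot be told apart.

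**Figure D1:**
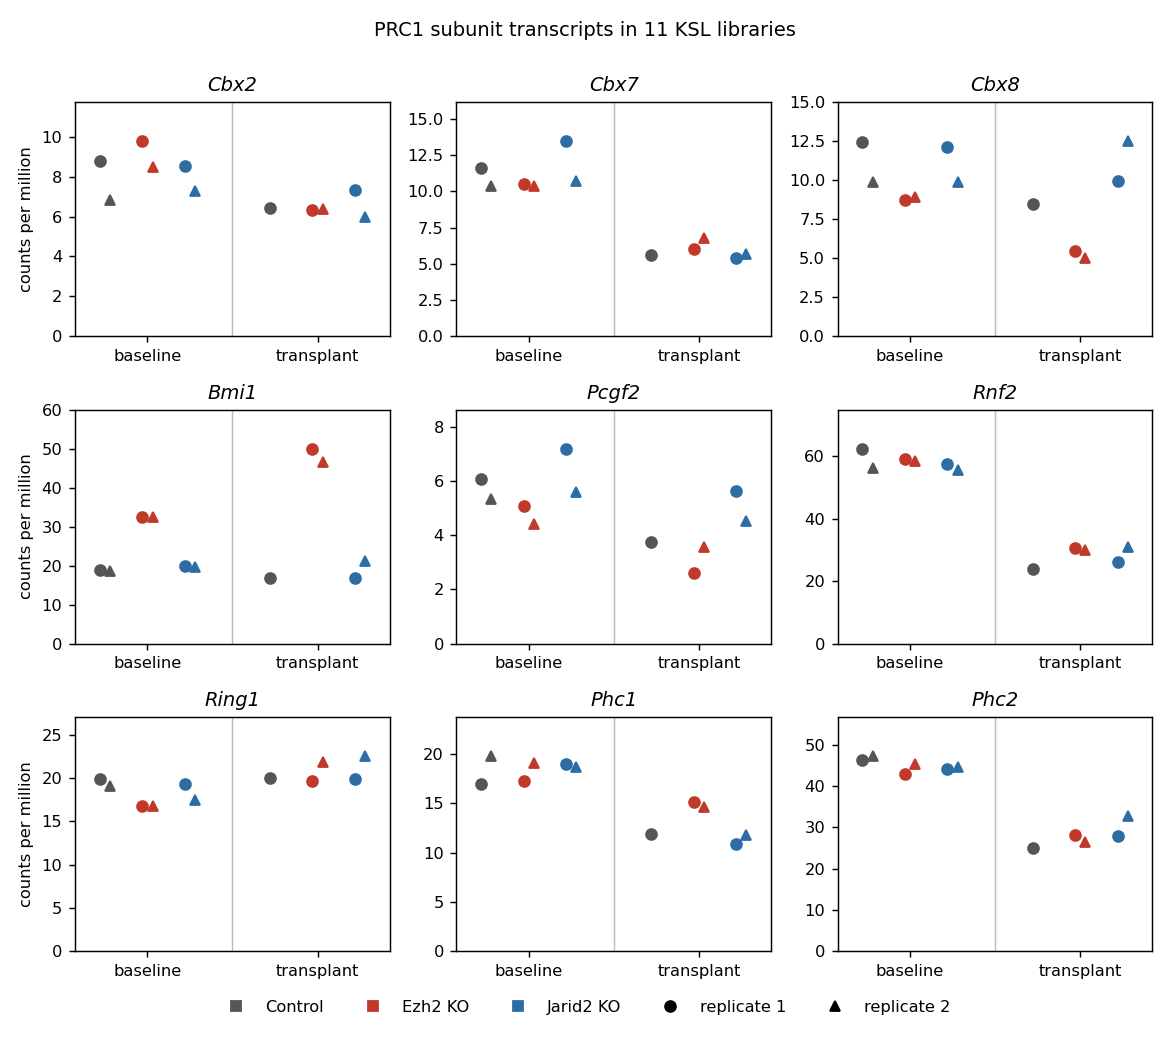
Counts-per-million of the 9 PRC1 members (one panel each) in the 11 libraries, one point a library, grouped by experiment and genotype. The Ezh2 KO points of Bmi1 lie above all other points of their experiment, at 32.4 to 32.6 at baseline and 46.6 to 50.1 after transplantation, and those of Cbx8 lie lowest after transplantation.

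Bmi1 rose in Ezh2 KO at baseline and was the only member called there, where a gene is called if its adjusted p lies under 0.05. The Control libraries had 18.9 and 18.7 CPM, the Ezh2 KO libraries 32.6 and 32.4 CPM, and the Jarid2 KO libraries 20.0 and 19.6 CPM. The Ezh2 KO libraries lay above the other 4 with no overlap. The Bmi1 rise was 1.78-fold (log2 difference 0.83, SE 0.05, adjusted p = 0.0112). Over all genes 3.47% were called in this comparison, and 1 of the 9 members was (4 at an unadjusted p under 0.05, 1 called by DESeq2). The median difference was -0.03 over the members and 0.00 over all genes.

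The other baseline members did not pass. Cbx2, a chromobox reader, stood at 8.78 and 6.83 CPM in Control and 9.81 and 8.51 CPM in Ezh2 KO (log2 difference 0.28, SE 0.08, adjusted p = 0.116). Cbx8 stood at 12.4 and 9.88 CPM in Control and 8.73 and 8.93 CPM in Ezh2 KO (log2 difference -0.28, SE 0.10, adjusted p = 0.188). The groups of Cbx2 overlapped and those of Cbx8 did not. Pcgf2, the PCGF paralog of Bmi1, gave -0.22 (adjusted p = 0.239) and Ring1 -0.17 (adjusted p = 0.172). Cbx7, Rnf2, Phc1 and Phc2 gave differences between -0.04 and 0.03.

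Markers of B cells moved with the Bmi1 rise. Cells that resembled B-cell precursors in their transcripts (B-like cells) made up 2.15 to 6.38% of Control, 11.7 to 21% of Ezh2 KO and 2.83 to 3.12% of Jarid2 KO baseline libraries. The summed level of 8 B-cell markers, none of them at 0 in any library, was 309 to 1032 CPM in Control, 1578 to 2940 in Ezh2 KO and 436 to 446 in Jarid2 KO. Without B-like and lymphoid primed-like cells, an alternative added after seeing the data, the Bmi1 difference was 0.64 with an adjusted p of 0.0507. The call was lost there, and genes called over all genes went from 630 to 29.

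After transplantation Bmi1 rose again in Ezh2 KO and Cbx8 fell. For Bmi1 the Control library had 16.9 CPM, the Ezh2 KO libraries 50.1 and 46.6 CPM, and the Jarid2 KO libraries 16.8 and 21.2 CPM. Both Ezh2 KO libraries lay above the other 3 without overlap, a rise of 2.71-fold over the single Control library (log2 difference 1.44, SE 0.14, adjusted p = 0.00424). For Cbx8, a chromobox reader, Control had 8.44 CPM, the Ezh2 KO libraries 5.44 and 4.99 CPM, and the Jarid2 KO libraries 9.94 and 12.5 CPM. The Ezh2 KO libraries were lowest, also without overlap (log2 difference from Control -0.77, SE 0.15, adjusted p = 0.0365). Over all genes 4.84% were called, and 2 of the 9 members were, 1 in each direction.

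The transplant Control library is alone in its group and is assumed to vary like the others. Lymphoid primed-like cells made up 6.91% of it, 19.7 to 22.4% of Ezh2 KO and 9.39 to 10.0% of Jarid2 KO. The 6 lymphoid primed markers summed to 351 CPM in Control, 921 to 931 in Ezh2 KO and 426 to 486 in Jarid2 KO, and the 8 B-cell markers to 46 CPM, 420.2 to 545 and 78.6 to 97. No transplant cluster was named B-like, so cells with B-cell markers could not be left out as a class. Without lymphoid primed-like cells Bmi1 gave 1.44 (adjusted p = 0.00509) and Cbx8 -0.84 (adjusted p = 0.0343). In male cells only, Bmi1 gave 1.45 (adjusted p = 0.0132), and Cbx8 gave -0.80 (adjusted p = 0.0758), a difference of like size that no longer passed. The Cbx8 call was lost too without Ezh2 KO replicate 2 (-0.68, adjusted p = 0.106) and under a stricter cell filter (-0.64, adjusted p = 0.119).

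The remaining 7 members did not pass in Ezh2 KO against Control after transplantation. Pcgf2 stood at 3.76 CPM in Control and 2.59 and 3.56 CPM in Ezh2 KO, and its log2 difference was -0.38 (adjusted p = 0.555). Rnf2, at 24 against 30.5 and 29.9 CPM, gave 0.25 (adjusted p = 0.303). Phc1, a Polyhomeotic subunit, stood at 11.9 against 15.2 and 14.6 CPM and gave 0.25 (adjusted p = 0.358). Cbx2, Cbx7, Ring1 and Phc2 lay between -0.10 and 0.10.

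The libraries labelled Jarid2 KO differed little from Control in any member. At baseline the 9 differences ran from -0.07 to 0.17 with a smallest adjusted p of 0.512, and after transplantation from -0.12 to 0.39 with a smallest adjusted p of 0.602. The edgeR test called 0 of 9 in both experiments, with 0 at an unadjusted p under 0.05 and 0 called by DESeq2. Over all genes 0.0330% were called at baseline and 0.336% after transplantation. Bmi1 gave 0.09 at baseline and 0.11 after transplantation, and Cbx8 0.00 and 0.35.

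Set against each other, the knockout genotypes differed in Bmi1 in both experiments and in Cbx8 after transplantation. These comparisons share the Ezh2 KO libraries with those above. At baseline Bmi1 was lower in Jarid2 KO than in Ezh2 KO by -0.74 on the log2 scale (SE 0.05, adjusted p = 0.0115), the only member called, against 5.91% of all genes. This call was lost without B-like and lymphoid primed-like cells (-0.52, adjusted p = 0.0504) and without Jarid2 KO replicate 1 (-0.73, adjusted p = 0.0646). After transplantation Bmi1 was lower by -1.32 (SE 0.11, adjusted p = 0.00121) and Cbx8 higher by 1.13, or 2.19-fold (SE 0.12, adjusted p = 0.00316), against 12.0% of all genes called. Pcgf2 stood at 5.62 and 4.53 CPM in transplant Jarid2 KO and 2.59 and 3.56 CPM in Ezh2 KO, without overlap. By edgeR it did not pass (log2 difference 0.77, adjusted p = 0.0605), nor did Phc1 (-0.37, adjusted p = 0.0541). By DESeq2 Pcgf2 passed (0.77, adjusted p = 0.0297), as it did in edgeR with library size only (adjusted p = 0.00763) and without Jarid2 KO replicate 2 (0.98, adjusted p = 0.0224). In all edgeR called 2 members (4 unadjusted) and DESeq2 3.

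Cell makeup and RNA quality moved with these transplant groups. Myeloid granule-like cells made up 8.71 to 9.12% of the Ezh2 KO libraries and 17 to 20.5% of the Jarid2 KO libraries, with 11.8% in Control. The summed level of 7 myeloid granule markers, none of them at 0, was 8132 to 8487 CPM, 12730 to 16909 CPM and 10639 CPM in the same order. Barcodes over the mitochondrial limit made up 25.7 and 27.4% of the Ezh2 KO barcodes, 36.6 and 37.4% of those of Jarid2 KO, and 43.4% in Control. With the stricter cell filter, which allows at most 5% mitochondrial UMIs, Jarid2 KO against Ezh2 KO gave -1.33 for Bmi1 (edgeR adjusted p = 0.00186). Cbx8 gave 1.08 there (adjusted p = 0.00561), while its call in Ezh2 KO against Control was lost, as given above. Beyond this filter the part of cell makeup and RNA quality in the Bmi1 and Cbx8 results was not tested over whole libraries.

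**Figure D2:**
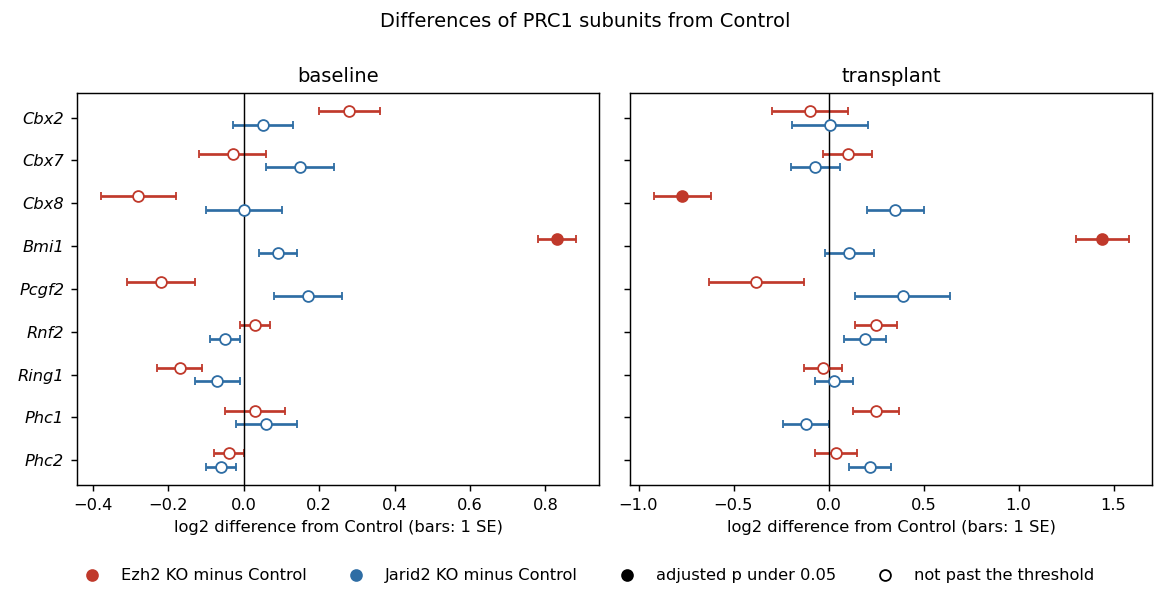
Log2 differences between genotypes for the 9 members at baseline and after transplantation, with bars of 1 standard error and filled points for an edgeR adjusted p under 0.05. Bmi1 stands apart at 0.83 and 1.44 in Ezh2 KO against Control, and Cbx8 at -0.77 after transplantation.

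Whether a genotype difference itself differed between the experiments was tested over all 11 libraries. For Ezh2 KO against Control the Bmi1 difference was larger after transplantation by 0.61 (SE 0.13, adjusted p = 0.141), and that of Cbx8 was more negative, by -0.48 (adjusted p = 0.553). By edgeR 0 of 9 members were called (1 at an unadjusted p under 0.05, 1 by DESeq2), and 0.349% of all genes. For Jarid2 KO against Control 0 of 9 members and 0% of all genes were called (2 members and 965 genes at an unadjusted p under 0.05, 0 members and 55 genes by DESeq2). For Jarid2 KO against Ezh2 KO, Bmi1 differed by -0.58 between the experiments (SE 0.12, adjusted p = 0.0446) and Cbx8 by 0.84 (SE 0.19, adjusted p = 0.0639), with 2.46% of all genes called. The Bmi1 call was kept in 6 of 22 alternatives, with differences of -0.82 to -0.46. This fit has no sex term. With one for the baseline libraries both members passed, Cbx8 at 0.85 (adjusted p = 0.0269), as they did by DESeq2 (Cbx8 0.87, adjusted p = 0.00921).

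To ask whether Bmi1 differed within cells of like type, Control cells of each experiment were clustered without the PRC1 genes, clusters were named from marker genes, and the other cells took the class of their nearest Control cells. Counts were then summed per library and class. Clusters that got no name were not tested. Among them were cluster 4, with 6.54 to 8.77% of baseline Control cells, and cluster 6, with 5.45 to 7.38%. Clusters 7 and 8 held 4.77 to 6.79% and 4.27 to 6.47% of these cells. Cluster 9 held 0% of 1 baseline Control library and 9.53% of the other. In the transplant Control library the unnamed cluster 2 held 11.1% of cells, cluster 4 8.15% and cluster 10 3.88%. Other unnamed clusters were smaller. At baseline Bmi1 was higher in Ezh2 KO in 9 of 9 tested classes by estimate and passed in 5. In B-like cells it stood at 16.6 and 18.5 CPM in Control and 55.2 and 58.4 CPM in Ezh2 KO (log2 difference 1.77, SE 0.13, adjusted p = 1.79e-06). In erythroid-like cells its level was 17.7 CPM in the 1 Control library with at least 50 such cells and 44.1 and 55.9 CPM in Ezh2 KO (1.56, SE 0.24, adjusted p = 5.9e-06). That lone library is assumed to vary like the others, and the call was lost by DESeq2 (adjusted p = 1), 1 of 5 alternatives. In these classes Control and Ezh2 KO did not overlap.

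Bmi1 also rose in the other 3 baseline classes that passed. In myeloid granule-like cells it went from 19.1 and 18.0 to 40.4 and 39.5 CPM (1.17, adjusted p = 0.00555). In cycling-like cells it went from 15.6 and 16.2 to 28.0 and 31.6 CPM (0.94, adjusted p = 0.00155), and in megakaryocyte-like cells from 16.4 and 17.7 to 28.3 and 31.3 CPM (0.83, adjusted p = 0.0375). The megakaryocyte-like call was lost in 7 of 10 alternatives. Of the myeloid granule-like class, cluster 14 held 68.5 to 79.1% in Control and cluster 19 48.5 to 60.8% in Ezh2 KO and 61.8 to 67.2% in Jarid2 KO, so that its make-up also differed.

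The baseline HSC-like class showed a small Bmi1 difference that did not pass. It stood at 24 and 22.0 CPM in Control and 27.5 and 27 CPM in Ezh2 KO, without overlap (log2 difference 0.27, adjusted p = 0.232). Lymphoid primed-like cells, at 21.3 and 19.5 against 27.2 and 30.7 CPM, gave 0.51 (adjusted p = 0.0696). Dendritic-like cells gave 0.80 (adjusted p = 0.654). T or innate lymphoid-like cells, with 1 Control library at 11.1 CPM, gave 1.36 and did not pass. There Jarid2 KO, at 36.7 to 37 CPM, lay above Ezh2 KO, at 24.5 to 31.2 CPM. Whether the rise differed between classes was not tested. Over all members 5 of 75 member-by-class tests were called, each of them Bmi1 (10 at an unadjusted p under 0.05, 2 by DESeq2), against 1.90% of all gene-by-class tests.

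After transplantation Bmi1 was higher in Ezh2 KO in 7 of 7 tested classes by estimate and passed in 6, the HSC-like class among them. HSC-like cells stood at 16.9 CPM in Control and 42.2 and 43.1 CPM in Ezh2 KO (log2 difference 1.28, SE 0.15, adjusted p = 0.00367). Myeloid granule-like cells stood at 11.0 against 48.5 and 50.2 CPM (2.07, SE 0.18, adjusted p = 0.00177). Mast or basophil-like cells gave 1.95, cycling-like cells 1.66, lymphoid primed-like cells 1.32 and megakaryocyte-like cells 1.18, with adjusted p from 0.00115 to 0.0307. The mast or basophil-like call was lost in 3 of 7 alternatives (adjusted p up to 0.423) and the cycling-like call in 1 of 8. Monocyte-like cells, at 22.1 against 49.2 and 42.2 CPM, gave 1.00 and did not pass (adjusted p = 0.292). In each of the 7 classes both Ezh2 KO libraries lay above every Control and Jarid2 KO library. The HSC-like class was defined apart in each experiment. Over whole libraries the 8 HSC markers summed to 1331 to 1341 CPM in baseline Control and 179.9 CPM in transplant Control. Whether HSC-like cells of the 2 experiments are alike was not tested.

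**Figure D3:**
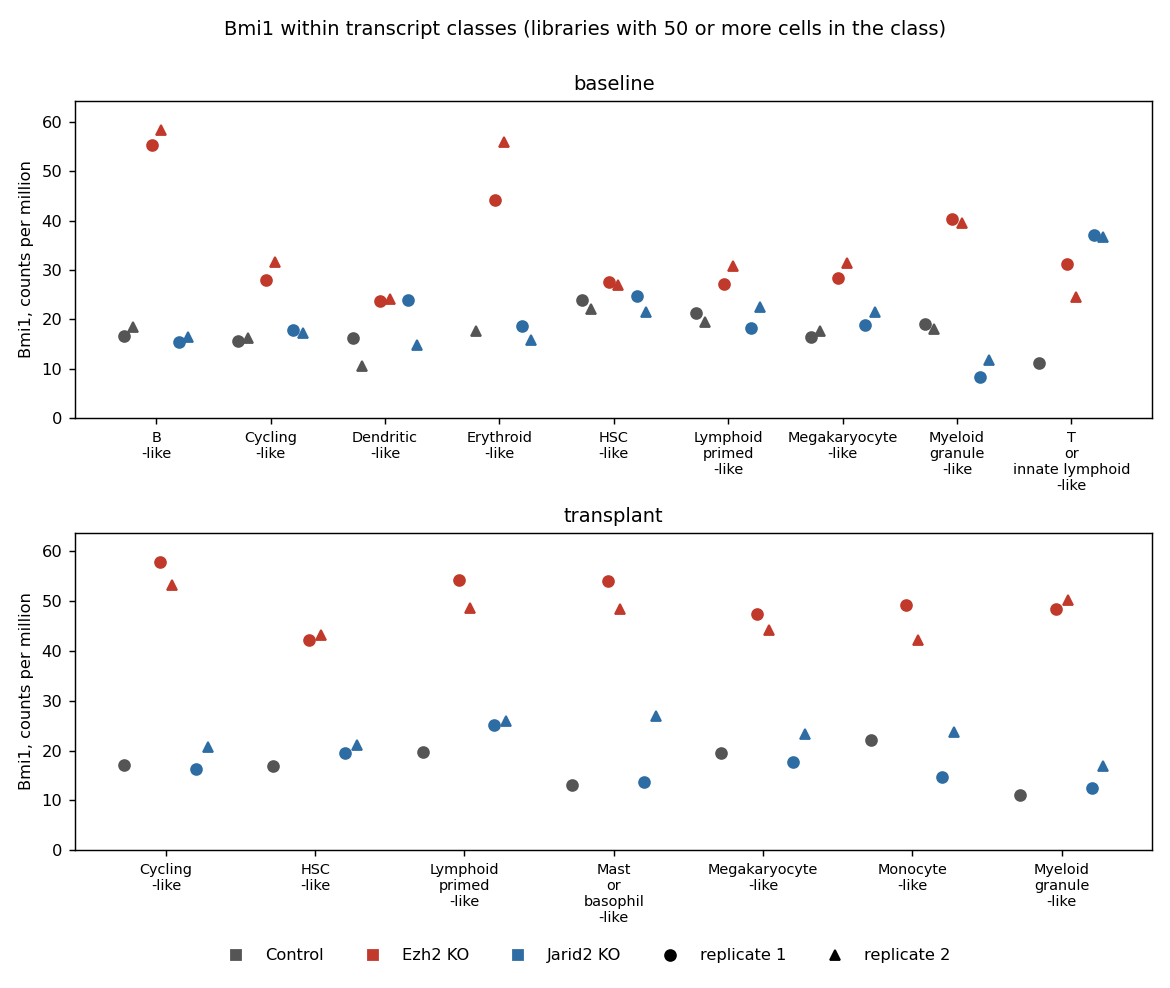
Bmi1 counts-per-million in each named transcript class, one point for each library with at least 50 cells of the class, by genotype, at baseline and after transplantation. Ezh2 KO points reach 55.2 to 58.4 in baseline B-like cells and 27 to 27.5 in baseline HSC-like cells, and 42.2 to 43.1 in transplant HSC-like cells.

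Cbx8 was lower in transplant Ezh2 KO than in Control in 7 of 7 tested classes by estimate, from -1.32 to -0.08, and passed in 1. The transplant class fits, of Bmi1 too, had no sex term, and male cells alone were not tested within classes. The share of female cells differed between these genotypes, as given above. In megakaryocyte-like cells Control had 7.54 CPM, the Ezh2 KO libraries 2.72 and 3.62 CPM, and the Jarid2 KO libraries 9.94 and 12.4 CPM (-1.32, SE 0.22, adjusted p = 0.0211), a call lost in 2 of 8 alternatives. HSC-like cells stood at 12.7 CPM in Control and 5.90 and 5.16 CPM in Ezh2 KO, and myeloid granule-like cells at 7.39 against 7.95 and 6.04 CPM. The groups overlapped in myeloid granule-like cells and not in HSC-like cells. Megakaryocyte-like cells made up 23.4% of transplant Control and 3.48 to 5.67% of baseline Control. The 8 megakaryocyte markers, however, summed to 76.1 CPM and 204 to 314 CPM in the same order. After transplantation they summed to 89.1 to 101 CPM in Ezh2 KO and 43.9 to 49.3 CPM in Jarid2 KO. The class name rests only on levels relative to the other Control clusters of the experiment. Of the 62 member-by-class tests, 6 were called higher and 1 lower (16 at an unadjusted p under 0.05, 6 by DESeq2), against 1.69% of all gene-by-class tests.

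**Figure D4:**
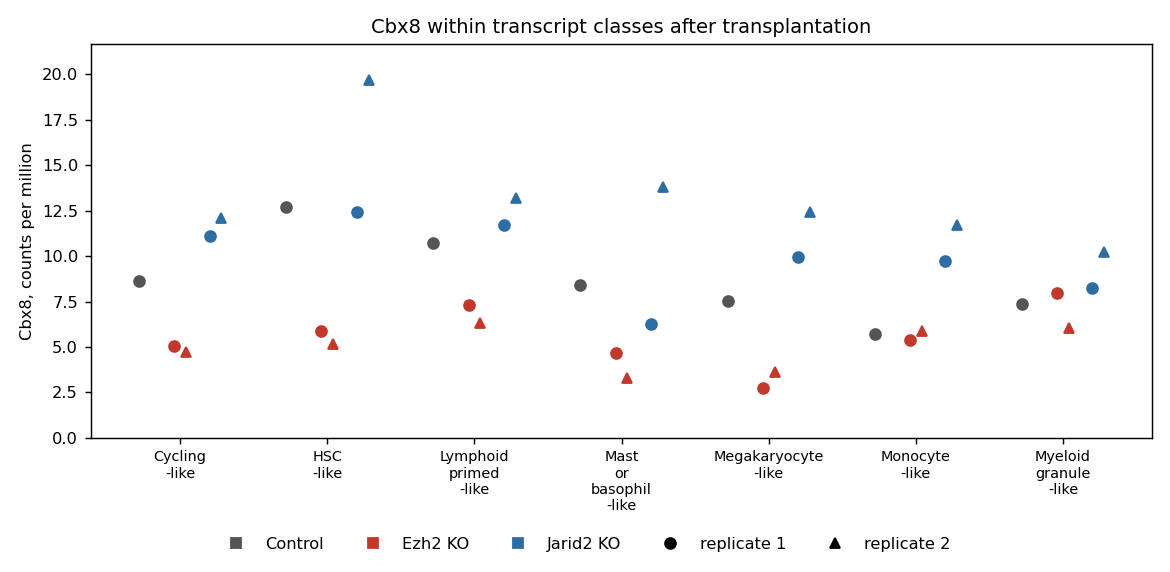
Cbx8 counts-per-million in each named transcript class after transplantation, one point for each library with at least 50 cells of the class, by genotype. In transplant HSC-like cells Ezh2 KO lies at 5.16 to 5.90 and Jarid2 KO at 12.4 to 19.7, with Control at 12.7.

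Within classes no member was called in the libraries labelled Jarid2 KO against Control. The highest Bmi1 estimate was 1.69, in baseline T or innate lymphoid-like cells, which have 1 Control library. At baseline the edgeR count was 0 of 75 tests (4 at an unadjusted p under 0.05, 0 by DESeq2), against 1.15% of all gene-by-class tests. After transplantation it was 0 of 62 (4 unadjusted, 0 by DESeq2), against 0.0996%. Against Ezh2 KO, Bmi1 was lower in Jarid2 KO in 5 of 9 baseline classes, by -1.94 in myeloid granule-like, -1.86 in B-like, -1.57 in erythroid-like, -0.78 in cycling-like and -0.53 in lymphoid primed-like cells, against 2.91% of all tests. The erythroid-like call was lost in 1 of 5 alternatives and the cycling-like call in 1 of 10. The lymphoid primed-like call was lost in 4 of 10 alternatives, among them without Jarid2 KO replicate 1 (-0.42, adjusted p = 0.12). In Jarid2 KO cluster 3 held 73.8 to 81.7% of that class, against 49.9 to 64.8% for Ezh2 KO. After transplantation it was lower in 7 of 7 classes, by -1.75 to -1.04, of which the mast or basophil-like call was lost in 3 of 7 alternatives. The monocyte-like call was lost without Ezh2 KO replicate 2 (adjusted p = 0.0869) and the cycling-like call without Ezh2 KO replicate 1 (adjusted p = 0.111). Cbx8 was higher there in 4 of 7 classes, by 1.80 in megakaryocyte-like, 1.5 in HSC-like, 1.2 in cycling-like and 0.83 in lymphoid primed-like cells, against 4.29% of all tests. The last of these was lost in 6 of 8 alternatives and the cycling-like call without Ezh2 KO replicate 1 (adjusted p = 0.176).

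In baseline Control libraries the chromobox genes stood highest in different classes. These levels are descriptions without a test, since the classes come from transcripts of the same cells. Cbx2 was highest in B-like cells, at 17.1 to 24.7 CPM, then lymphoid primed-like cells at 8.83 to 11.3, and stood at 4.02 to 4.19 in HSC-like cells. Cycling-like, myeloid granule-like, dendritic-like and megakaryocyte-like cells lay between, each overlapping its neighbour. Cbx7 ran the other way, at 17.5 to 18.1 CPM in HSC-like cells, 11.6 to 12.2 in lymphoid primed-like and 5.30 to 6.18 in B-like cells. The 1 library with enough T or innate lymphoid-like cells stood at 40.8 CPM. Cbx8 had its highest mean in lymphoid primed-like cells, at 14.9 to 17.7 CPM, overlapped by dendritic-like cells at 7.37 to 21.1, and stood at 5.65 to 7.59 in megakaryocyte-like cells.

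Bmi1 ran from 22.0 to 24 CPM in Control HSC-like cells through 19.5 to 21.3 in lymphoid primed-like to 15.6 to 16.2 in cycling-like cells. Below these came dendritic-like cells, at 10.5 to 16.2 CPM and overlapping the cycling-like range, and T or innate lymphoid-like cells, at 11.1 CPM in 1 library. Pcgf2 was highest in megakaryocyte-like cells, at 10.2 to 11.2 CPM, against 6 to 7.2 in HSC-like and 2.25 to 3.76 in B-like cells. Rnf2 lay at 66.0 to 69.2 CPM in lymphoid primed-like and 62.3 to 65.3 in HSC-like cells. These neighbours were separated only by dendritic-like cells, whose range overlapped both. Ring1 was lowest in B-like cells, at 12.9 to 14.2 CPM. Phc1 was highest in cycling-like cells, at 21.2 to 21.4 CPM, with megakaryocyte-like and HSC-like cells overlapping it. Phc2 was highest in dendritic-like cells, at 62.1 to 75.3 CPM, against 52.2 to 52.4 in HSC-like cells. In the single transplant Control library Bmi1 was highest in monocyte-like cells, at 22.1 CPM, and stood at 16.9 in HSC-like cells. Cbx7 and Cbx8 were both highest in HSC-like cells of that library, at 13.7 and 12.7 CPM. Cbx2 was highest in its lymphoid primed-like cells (10.3 CPM) and Pcgf2 in its megakaryocyte-like cells (5.58 CPM).

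The antibody tags gave a definition of stem and progenitor cells that uses no transcript. In each baseline library cells were gated as stem (CD150 high, CD48 low, CD135 low), MPP2 (CD150 and CD48 high, CD135 low), MPP3 (CD150 low, CD48 high, CD135 low) and MPP4 (CD150 low, CD48 and CD135 high). The gates follow common definitions of multipotent progenitors (MPP) but use ranks within a library. Gates held 1207 to 1517 stem, 147 to 625 MPP2, 388 to 548 MPP3 and 882 to 1110 MPP4 cells a library. HSC-like cells made up 59.7 to 77.2% of the stem gate, and lymphoid primed-like cells 40.4 to 55.1% of the MPP4 gate. Megakaryocyte-like cells, in which Pcgf2 was highest, made up 10.8 to 19.5% of the stem gate, 1.28 to 24% of MPP2, at most 0.365% of MPP3 and 0% of MPP4. Cycling-like cells made up 6.54 to 8.71%, 4.8 to 25.8%, 14.4 to 20.1% and 17.9 to 27.1% in the same order. The part of these classes in the gate results was not tested.

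Away from the stem gate Cbx2 rose, while Cbx7, Pcgf2 and Phc1 fell, in all 3 progenitor gates. Some MPP2 and MPP3 calls were lost once B-like cells were left out, and with strict gates 1 member was called in each. Against 57.7% of all genes called in the MPP2 gate, 57.3% in MPP3 and 54.8% in MPP4, 4, 4 and 5 of the 9 members were called, shares near or below the background. Members called by DESeq2 numbered 3, 4 and 6. The sixth in MPP4 was Rnf2 (0.17, adjusted p = 0.0392). By edgeR Bmi1, Rnf2, Ring1 and Phc2 passed in none of the 3 gates as first analysed. With library size only Phc2 passed in MPP2 (-0.23, adjusted p = 0.00479) and MPP3 (-0.15, adjusted p = 0.0398), and without Control replicate 1 Bmi1 passed in MPP2 (0.42, adjusted p = 0.0447).

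Cbx2 in the 6 libraries (Control, Ezh2 KO and Jarid2 KO, replicates 1 and 2 of each) stood at 4.30, 5.00, 5.26, 4.95, 5.33 and 4.85 CPM in the stem gate and at 12.4, 9.91, 10.8, 10.4, 12.3 and 10.7 CPM in the MPP4 gate. Every MPP4 value lay above every stem value, and the log2 difference was 1.22. In the MPP3 gate Cbx2 was at 9.48 CPM ± 1.68 (SD, n = 6), higher in 6 of 6 libraries (1.00). In the MPP2 gate it was at 7.76 ± 3.58 (SD, n = 6), higher in 5 of 6 libraries (0.74), with 12.2 and 11.5 CPM in Ezh2 KO and 3.1 to 7.74 in the other 4.

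Cbx7, in the same order of libraries, stood at 15.7, 13.7, 11.4, 12.4, 17.8 and 14.7 CPM in the stem gate and at 6.29, 5.72, 8.79, 7.83, 9.54 and 6 CPM in the MPP2 gate. No MPP2 value reached the lowest stem value, and the log2 difference was -0.83. It was lower in 6 of 6 libraries in the MPP3 gate too, at 8.72 CPM ± 1.65 (SD, n = 6; -0.62), and in the MPP4 gate, at 9.78 ± 1.2 (SD, n = 6; -0.49).

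Pcgf2 was at 8.65 CPM ± 1.21 (SD, n = 6) in the stem gate and at 5.70, 4.99 and 4.26 CPM in the MPP2, MPP3 and MPP4 gates, lower in 6 of 6 libraries each time (-0.48, -0.71 and -0.97). Phc1 was at 21.1 CPM ± 2.05 (SD, n = 6) in the stem gate and at 17.2, 17.3 and 15.9 CPM in the others, also lower in 6 of 6 libraries (-0.20, -0.20 and -0.35). Its MPP2 call was lost in 9 of 16 alternatives and its MPP3 call in 3 of 16. Cbx8 passed in the MPP4 gate, from 8.06 CPM ± 1.71 (SD, n = 6) to 12.4 ± 2.97 (SD, n = 6), higher in 6 of 6 libraries (0.67). Whether the gates differed from each other was not tested.

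**Figure D5:**
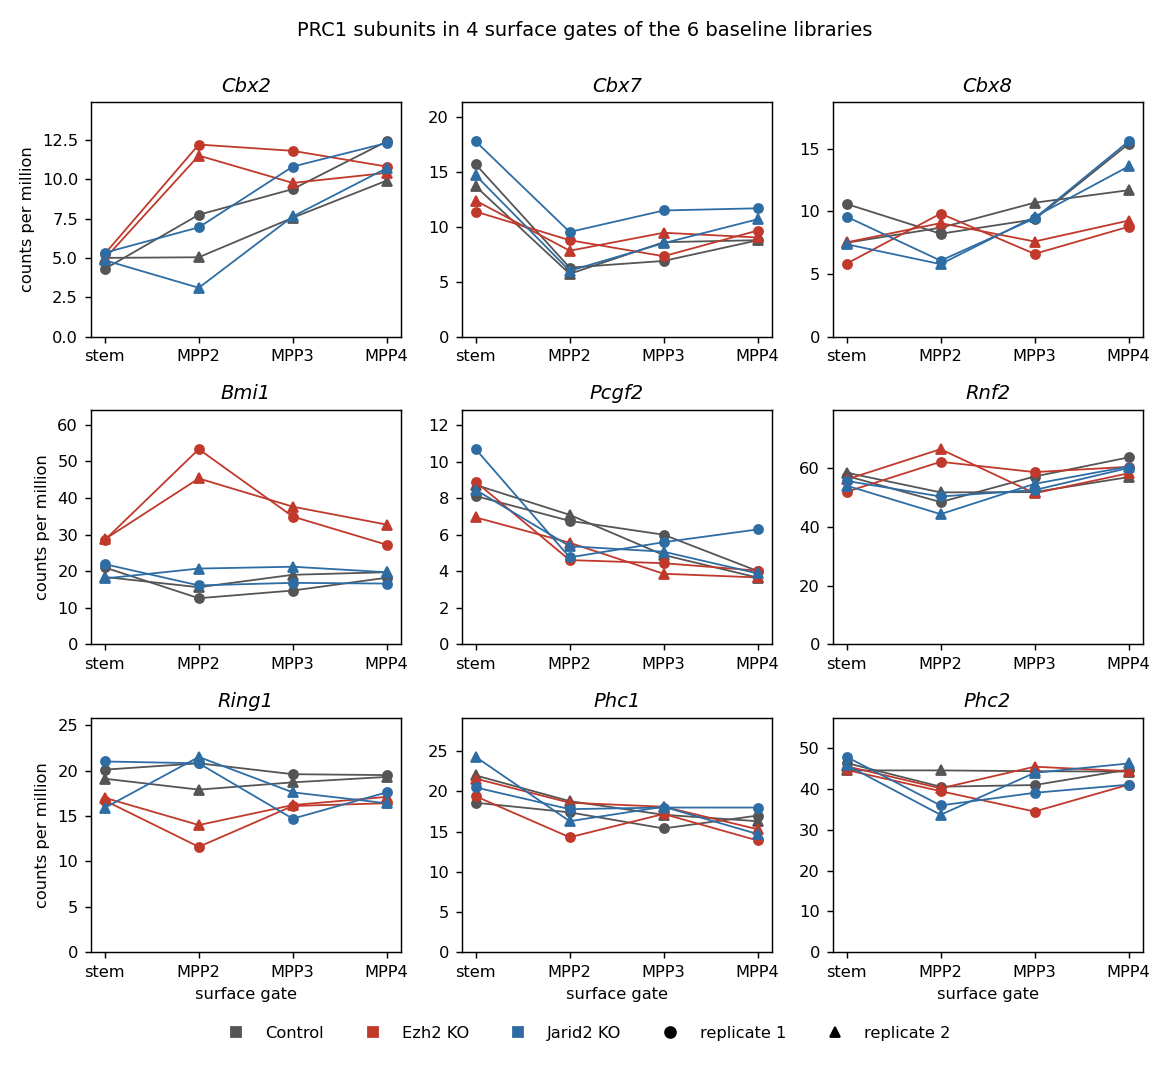
Counts-per-million of the 9 members in the 4 surface gates of the 6 baseline libraries, one point a library and gate, colored by genotype. Cbx2 goes from a mean of 4.95 in the stem gate to 11.1 in the MPP4 gate and Cbx7 from 14.3 to 9.78, while the Ezh2 KO points of Bmi1 stand apart most in the MPP2 gate.

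B-like cells moved with the gates and the genotype. They made up 28.3 and 1.08% of the MPP2 gate in Control, whereas the Ezh2 KO libraries had 86.6 and 63.3% and the Jarid2 KO libraries 7.48 and 6.83%. In the MPP3 gate they made up 23.9 and 10.0%, 44.6 and 28.0%, and 12.1 and 14.6%, and in the other gates at most 1.67%. With B-like cells left out, an alternative added after seeing the data, Cbx2 in the MPP2 gate gave 0.09 (adjusted p = 0.685), Pcgf2 -0.33 (adjusted p = 0.0524) and Phc1 -0.17 (adjusted p = 0.0983), so these calls were lost. Phc1 was lost in the MPP3 gate as well (-0.15, adjusted p = 0.0972). Cbx7 was still lower in the MPP2 gate (-0.93, adjusted p = 4.58e-06), and Cbx2 (0.70), Cbx7 (-0.49) and Pcgf2 (-0.61) kept their calls in the MPP3 gate. All 5 MPP4 calls were kept. Phc2 now passed in MPP2 (-0.16, adjusted p = 0.027) and Rnf2 in MPP4 (0.18, adjusted p = 0.00897).

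Within the gates Bmi1 rose in Ezh2 KO against Control in MPP2, MPP3 and MPP4. In the MPP4 gate the Control libraries had 18.2 and 19.7 CPM, the Ezh2 KO libraries 27.2 and 32.7 CPM, and the Jarid2 KO libraries 16.6 and 19.7 CPM (log2 difference from Control 0.68, SE 0.09, adjusted p = 0.00579). In the MPP3 gate it stood at 14.7 and 19.0 against 34.9 and 37.6 CPM (1.18, SE 0.13, adjusted p = 0.00327), and in the MPP2 gate at 12.6 and 15.6 against 53.3 and 45.3 CPM (1.90, SE 0.21, adjusted p = 0.00299). In the stem gate, at 21 and 18.4 against 28.5 and 28.7 CPM, it gave 0.60 and did not pass (SE 0.10, adjusted p = 0.120). The Ezh2 KO libraries lay above Control in all 4 gates.

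With B-like cells left out the Bmi1 rise was 0.95 in MPP2 (adjusted p = 0.0422), 0.79 in MPP3 (adjusted p = 0.0383) and 0.66 in MPP4 (adjusted p = 0.0075), so each call was kept at a smaller size. The MPP4 call was lost in 2 of 11 alternatives and the Rnf2 call given next in 8 of 10. Rnf2 passed in the MPP2 gate, at 48.4 and 51.7 against 62.1 and 66.4 CPM (0.46, adjusted p = 0.0438), and did not without B-like cells (0.31, adjusted p = 0.426). In all, 4 of 36 member-by-gate tests were called (7 unadjusted, 3 by DESeq2), against 5.92% of all tests. For Jarid2 KO against Control edgeR called 0 of 36 (1 unadjusted, 0 by DESeq2), against 0.749%.

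For Jarid2 KO against Ezh2 KO in the gates 2 tests were higher and 5 lower of 36 (10 unadjusted, 3 by DESeq2), against 8.19% of all tests. Bmi1 was lower by -1.43 in MPP2, -0.99 in MPP3 and -0.75 in MPP4. Cbx2 was lower by -1.38 and Rnf2 by -0.49 in MPP2, where Ring1 was higher by 0.70, and Cbx8 was higher by 0.67 in MPP4. Each of these 4 calls was lost in 6 alternatives, and DESeq2 called none of them. Without B-like cells the MPP2 values were -0.61 for Cbx2 (adjusted p = 0.574), -0.32 for Rnf2 (adjusted p = 0.243) and 0.36 for Ring1 (adjusted p = 0.401). Without B-like cells the Bmi1 difference passed in MPP4 (-0.73, adjusted p = 0.00207) and not in MPP2 (-0.46, adjusted p = 0.22) or MPP3 (-0.47, adjusted p = 0.134).

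Whether the genotype difference differed between a progenitor gate and the stem gate was tested in a model added after seeing the data. The Ezh2 KO minus Control difference, taken with its sign, was higher in MPP2 than in stem for Bmi1 by 1.35 (SE 0.26, adjusted p = 0.00241), for Cbx7 by 0.90 (adjusted p = 0.0329) and for Rnf2 by 0.53 (adjusted p = 0.0132), 3 of 9 members against 17.8% of all genes. For Cbx7 the differences had opposite signs, -0.25 in the stem gate (adjusted p = 0.480) and 0.56 in MPP2 (adjusted p = 0.269), and neither passed. None of these passed without B-like cells, where Bmi1 gave 0.36 (adjusted p = 0.682), Cbx7 0.86 (adjusted p = 0.338) and Rnf2 0.37 (adjusted p = 0.367). Between MPP3 and stem 0 of 9 members were called by edgeR (1 unadjusted, 0 by DESeq2; Bmi1 0.61, adjusted p = 0.41), against 0.226% of all genes. Between MPP4 and stem 0 of 9 were called (0 unadjusted, 0 by DESeq2; Bmi1 0.11), against 0.113%.

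The related genes were counted between genotypes against the share of all genes called, 3.47% at baseline and 4.84% after transplantation. In Ezh2 KO against Control at baseline edgeR called 0 of 16 variant PRC1 genes (2 unadjusted, 1 by DESeq2) and 0 of 10 PRC2 genes other than the targeted ones (3 unadjusted, 0 by DESeq2). It called 0 of 7 genes for H2A deubiquitination (0 unadjusted, 0 by DESeq2) and 0 of 3 HP1 chromobox genes (1 unadjusted, 0 by DESeq2). After transplantation 1 of these genes was called, the variant PRC1 gene Auts2, at 9.49 CPM in Control and 67.2 and 62.8 CPM in Ezh2 KO (log2 difference 2.69, adjusted p = 4.68e-04). Its difference was larger than at baseline by 2.21 (adjusted p = 0.0178). These counts are near the background. In Jarid2 KO against Ezh2 KO at baseline, where 5.91% of all genes were called, 1 of 16 variant PRC1 genes (Auts2, -0.66) and 1 of 10 PRC2 genes (Rbbp4, -0.25) were lower. After transplantation, where 12.0% were called, Auts2 (-2.38) was lower and Kdm2b higher (0.34) of the 16 variant PRC1 genes, and Epop (-0.99) was lower of the 10 PRC2 genes.

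Cdkn2a, the cell-cycle inhibitor locus that PRC1 with BMI1 is known to repress, rose in Ezh2 KO along with Bmi1. At baseline it stood at 0.203 and 0.153 CPM in Control and 9.51 and 9.35 CPM in Ezh2 KO (log2 difference 5.78, SE 0.18, adjusted p = 0.00302). After transplantation the Control library had 0 counts and Ezh2 KO 413 and 240, at least 67.1-fold higher against a floor of 3 counts in the Control library. Its neighbour Cdkn2b gave 3.31 at baseline (adjusted p = 0.0280), on 5 and 6 counts in Control and 85 and 59 in Ezh2 KO. After transplantation Cdkn2b had 0 counts in Control and 0.0372 CPM in the lower Ezh2 KO library. That lies under the floor of 0.0444 CPM (3 counts in Control), so no rise was shown for it there.

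Across the surface gates, where 54.8 to 57.7% of all genes were called, related genes were called in both directions. All 3 HP1 chromobox genes (Cbx1, Cbx3 and Cbx5, which read H3K9 methylation rather than H3K27me3) were higher than in the stem gate in each progenitor gate, by 0.29 to 0.60. Cbx6, a canonical chromobox gene, was lower in each (-1.07, -0.75 and -0.59 in MPP2, MPP3 and MPP4), as was the Polyhomeotic gene Phc3 (-0.46, -0.47 and -0.32). Ezh2 was higher (1.15, 1.11 and 0.71), and its paralog Ezh1 was lower in MPP2 (-0.82) and MPP3 (-0.45). Of 16 variant PRC1 genes 5, 4 and 7 were higher and 5, 5 and 3 lower, with Auts2 up by 1.06, 1.02 and 1.37, shares near that of all genes.

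Values of neighbouring genes are given because the strand used in counting is not given in the sources used here; whether their reads enter the members' counts was not tested. Commd3 ends 786 bases upstream of Bmi1 on the same chromosome. The baseline Control libraries had 106 and 102 CPM of it and the Ezh2 KO libraries 129 and 133 CPM, without overlap (log2 difference 0.38, SE 0.05, adjusted p = 0.031). After transplantation it stood at 98.4 against 147 and 150.5 CPM (0.51, adjusted p = 0.146). Apobec3, which overlaps Cbx7, was higher in the progenitor gates (0.49, 0.68 and 0.47) where Cbx7 was lower. Cbx2 and Cbx8 are neighbours on chromosome 11 with 5027 bases between them.

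The genes whose levels followed each member most closely over the 24 library-by-gate values were described by Pearson's r, without a test, since gates of 1 library share its cells' source and depth. For Cbx7 they were Zfp467 (0.96), Dip2c (0.95) and Pik3ip1 (0.95). For Phc2 they were E430024I08Rik (0.89), Arrdc3 (0.89) and Gm46430 (0.88), and for Phc1 Dock1 (0.88), A930005H10Rik (0.86) and Snap47 (0.86). Rnf2 followed Dusp2 (0.84), Ring1 Tfam (0.84) and Bmi1 Men1 and Plcg1 (0.79 each). Cbx2, Cbx8 and Pcgf2 lay under the minimum of 10 CPM set for this measure.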

How the data were processed

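Single-cell 3′ RNA libraries of sorted KSL cells were analysed from the deposited count matrices, which hold whole-number UMI counts per gene and cell. Per the file headers they were made with Cell Ranger 7.2.0 (6 baseline matrices, antibody counts included) and 6.1.2 (5 transplant matrices). The submitters' processing notes name mm10, Cell Ranger 3.1.0, Seurat 3.0 and Partek.

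Cells were kept with at least 1000 UMIs, at least 500 genes and at most 10% mitochondrial UMIs. The highest Scrublet scores (in scanpy 1.11.5) were removed at 0.8% per 1000 barcodes, because its automatic threshold marked too few cells. Counts were summed per library, or per library and class or gate with at least 50 cells, and tested with edgeR 4.0.16 (quasi-likelihood, two-sided, TMM, filterByExpr) in R 4.3.3. Benjamini-Hochberg adjustment ran over all genes of a fit, with a threshold of 0.05 and a sex term at baseline. Gate comparisons had library as a block. DESeq2 1.42.0, other scalings, filters, gates and each library left out were alternatives. CPM (counts-per-million values) are relative to the UMIs of kept cells. Replicate 1 and 2 libraries of a group differed far beyond sampling noise, with a chi-square of 30.4 to 245 per degree of freedom.

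Antibody UMIs were transformed by a centred log-ratio. For CD150 and CD135 high was the top 25% and low the bottom 50% of a library, and for CD48 the top and bottom 40%. Classes came from Leiden clusters (leidenalg 0.10.2, resolution 1) on 2000 variable genes, 30 principal components and 15 neighbours. The scripts were tested on simulated data.

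Named genes were the 9 members, the targeted genes, the genes past the threshold in related lists (1 related list is not reported here between genotypes), and the 3 genes most like each member. The members and lists were chosen with earlier results of these data known. Comparisons within an experiment share their libraries. The baseline replicate numbers mark sex in every group, and same-numbered libraries deviated together (correlations of 0.70 to 0.79).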

Additional observations from a re-analysis of the deposited data

Results flagged for a closer look

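Differences between groups in the same contrast put 4 results here. The Jarid2 KO minus Ezh2 KO difference of Bmi1 was larger in size after transplantation than at baseline by -0.58 (edgeR adjusted p = 0.0446). It was kept in 6 of 22 alternatives. Bmi1 is lower in both Jarid2 KO libraries than in both Ezh2 KO libraries in each experiment.

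In the baseline surface gates the Ezh2 KO minus Control difference, taken with its sign, was higher in the MPP2 gate than in the stem gate for Bmi1 by 1.35 (adjusted p = 0.00241), for Cbx7 by 0.90 (adjusted p = 0.0329) and for Rnf2 by 0.53 (adjusted p = 0.0132). Ezh2 KO cells of the MPP2 gate were 86.6 and 63.3% B-like, against 28.3 and 1.08% in Control, and their median UMI counts were 7870 and 10410, against 13389 and 14489. Without B-like cells Bmi1 gave 0.36 (adjusted p = 0.682) and Rnf2 0.37 (adjusted p = 0.367). Cbx7 gave 0.86 (adjusted p = 0.338), about as large as with them. The Bmi1 call was kept in 12 of 15 alternatives, that of Rnf2 in 9 and that of Cbx7 in 4.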

How the results depend on the processing

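Of 62 member differences that passed, 702 alternative values were computed: 571 kept direction and call, 130 kept direction only, and 1 reversed (Rnf2, Ezh2 KO by MPP2 gate, -0.01 under strict gates). Bmi1 in Ezh2 KO against Control passed in 16 of 17 alternatives at baseline (0.64 to 0.85) and 14 of 14 after transplantation (1.34 to 1.52), and Cbx8 after transplantation in 10 of 13 (-0.88 to -0.64). The cause of a lost call was not tested.

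Counts of members called moved as follows. At baseline, Ezh2 KO against Control went from 1 to 0, and Jarid2 KO against Ezh2 KO from 1 to 0, without B-like and lymphoid primed-like cells. Leaving out each library gave 0 to 1 for the latter. After transplantation Ezh2 KO against Control went from 2 to 1 with genes of at least 10 CPM (Cbx8 then untested), the strict cell filter and male cells only, and ran from 1 to 2 over libraries left out. Jarid2 KO against Ezh2 KO went from 2 to 4 without a low-count filter or a cell filter, and to 1 with genes of at least 10 CPM. Pcgf2 was also called by DESeq2, with doublets kept (adjusted p = 0.0498), with library size only and without Jarid2 KO replicate 2. Transplant minus baseline, Ezh2 KO against Control went from 0 to 1 by DESeq2. Jarid2 KO against Ezh2 KO went from 1 to 2 without B-like and lymphoid primed-like cells, by DESeq2 and with a sex term. It went to 0 with RLE factors, no TMM, no low-count filter, the strict cell filter and male transplant cells, and ran from 0 to 1 over libraries left out.

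In the gates MPP2 went from 4 to 1 with strict gates and 2 without B-like cells (Cbx7 kept, Phc2 newly called), MPP3 from 4 to 2 with genes of at least 10 CPM and 1 with strict gates, and MPP4 from 5 to 2 with genes of at least 10 CPM. Ezh2 KO by MPP2 gate went from 3 to 0 with strict gates, gates without the centred log-ratio and gates without B-like cells, and ran from 1 to 3 over libraries left out (1 without Control replicate 2 or Ezh2 KO replicate 1). Calls within baseline classes went from 10 to 5 by DESeq2 and ran from 5 to 12 over libraries left out, lowest without Jarid2 KO replicate 2. Calls within transplant classes numbered 18 and ran from 11 to 21, lowest without Ezh2 KO replicate 1. Calls within gates went from 11 to 6 by DESeq2, 0 with strict gates, where few gates reached 50 cells, and 5 without B-like cells, and ran from 6 to 12, lowest without Jarid2 KO replicate 2.

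Same-numbered transplant libraries of Ezh2 KO and Jarid2 KO did not deviate together (correlation -0.01 over 8840 genes). That value does not settle whether they were paired by design. With the replicate block Jarid2 KO against Ezh2 KO gave -1.33 for Bmi1 and 2 members called, as without it. Over alternatives the baseline Ezh2 KO minus Control count of all genes ran from 23 to 1363 and the transplant count from 162 to 1170.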
